A study of Mus musculus with 6 samples.

Results

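The sites described here are stretches of nuclear RNA in newborn mouse cortex where intervals of crosslinked reads stacked up in all 4 libraries made against a polypyrimidine tract binding protein (PTBP). There were 1173 of them, out of 5785 stacked sites of the PTBP2 library of wild-type cortex on chromosomes 1 to 3 and 11 to 19. A site is a run of overlapping or touching distinct read intervals on 1 strand, and it counts as stacked when it holds 5 or more of them. The members were chosen by these interval numbers in the 4 libraries. A shared site is a stacked PTBP2 wild-type site that overlaps, by at least 1 base on the same strand, a stacked site in each of the other 3 PTBP libraries. The 6 libraries of the series together held 55683 stacked sites.

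PTBP1 and PTBP2 are close paralogs with RNA recognition motifs that bind pyrimidine-rich RNA, often upstream of or within regulated exons, where they mostly hold back splicing. PTBP1 is found in progenitors and non-neuronal cells and falls as neurons form, while PTBP2 rises in young neurons and is later reduced as they mature. The paralogs are known to bind much of the same RNA but to differ in how strongly they act on some exons. PTBP proteins can bind the same transcript at many places, so sites are known to occur in arrays along 1 RNA.

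Crosslinking and immunoprecipitation with sequencing (CLIP-seq) joins protein to RNA with ultraviolet light, pulls the protein down and sequences the RNA attached to it. All groups were cerebral cortex of BL6/129Sv mice on postnatal day 1. PTBP2 antibody was used on wild-type cortex and on cortex with the genotype Rosa-PTBP1; Emx1-cre. FLAG antibody was used on Rosa-PTBP1; Emx1-cre, on Rosa-PTBP1; PTBP2 loxp/loxp; Emx1-Cre and, as 2 libraries, on wild type (WT). Each PTBP group held 1 library, and only the WT FLAG group had 2. The FLAG tag sits on the PTBP1 made from the Rosa-PTBP1 transgene, so WT cortex should hold no tagged protein and its FLAG libraries measure background. Emx1-cre acts in the dorsal forebrain lineage, including excitatory neurons, and not in the interneurons, microglia or vessels of the same tissue. Cells outside that lineage keep their PTBP2 alleles in the loxp/loxp cortex, and the lists hold no measure of how much PTBP2 was lost. The labels give neither the number of animals per library nor whether animals were pooled, and no group comparison below has a replicate check.

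On the 12 chromosomes used, the PTBP libraries held 61697 distinct intervals (PTBP2 Rosa-PTBP1) to 223107 (FLAG Rosa-PTBP1), with 93916 in PTBP2 WT and 154407 in FLAG Rosa-PTBP1 PTBP2 loxp. The FLAG WT libraries held 51141 (replicate 1) and 17129 (replicate 2). Rates below are distinct intervals per 100000 of the library on these chromosomes, and positions are in the mm9 build. No gene model or genome of that build was used here, so sites are named by position, and neither host genes, motifs nor cell type markers were examined. The rule leaves out the other chromosomes, on several of which a library lists few sites.

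Sharing depended on how many intervals the PTBP2 WT site held. Of the PTBP2 WT stacked sites, 62.8% overlapped a stacked site of FLAG Rosa-PTBP1, 54.5% one of FLAG Rosa-PTBP1 PTBP2 loxp and 27.0% one of PTBP2 Rosa-PTBP1. All 3 overlapped in 20.3%. These shares follow from the selection and are a description. Another 1544 sites were stacked in both FLAG libraries but not in PTBP2 Rosa-PTBP1, the shallowest of the 4. Of these, 152 overlapped a PTBP2 Rosa-PTBP1 site of 4 intervals, 1 short of the minimum, and 1104 overlapped none listed. Only 73 sites lacked FLAG Rosa-PTBP1 alone and 178 lacked FLAG Rosa-PTBP1 PTBP2 loxp alone. Without the PTBP2 Rosa-PTBP1 requirement 2717 sites would be shared, so that library set the size of the group.

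The share that was shared rose with the interval number of the PTBP2 WT site. It was 2.96% of the 1519 sites with 5 intervals (exact Clopper-Pearson 95% interval 2.17 to 3.94) and 10.05% of the 2418 sites with 6 to 9 (8.88 to 11.3). It was 30.7% of 1201 sites with 10 to 19 (28.1 to 33.4), 75% of 508 sites with 20 to 49 (71.0 to 78.7) and 97.1% of 139 sites with 50 or more (92.8 to 99.2). Of the 139 deepest sites, all overlapped a stacked FLAG Rosa-PTBP1 site, and 4 fell short in another library. Intervals here and below cover counting error only. The plot of sharing by interval class shows the 3 other libraries rising with interval number, with PTBP2 Rosa-PTBP1 lowest in every class.

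**Figure D1:**
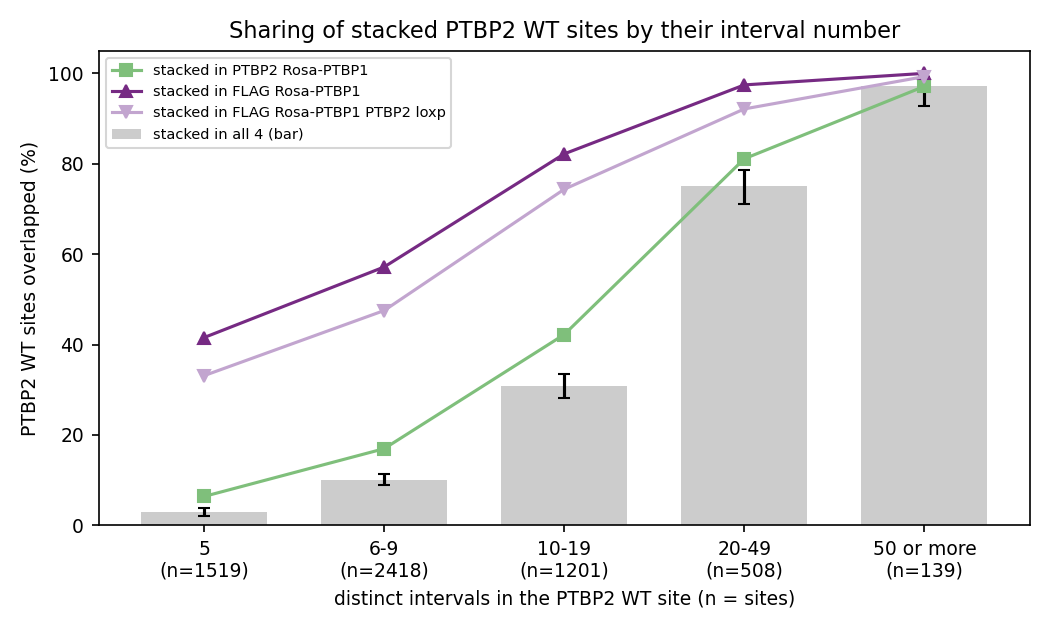
Share of stacked PTBP2 WT sites (vertical axis, percent) that overlap a stacked site of each other PTBP library (lines) or of all 3 (bars, with exact 95% binomial intervals), by the distinct intervals of the PTBP2 WT site (horizontal axis). The bars go from 2.96% at 5 intervals to 97.1% at 50 or more.

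At the edge of the rule, 213 shared sites held exactly 5 intervals in at least 1 library. In 159 of the shared sites the PTBP2 Rosa-PTBP1 site was at this minimum, in 45 the PTBP2 WT site, in 23 that of FLAG Rosa-PTBP1 PTBP2 loxp and in 12 that of FLAG Rosa-PTBP1. At the other end, 526 shared sites overlapped a site of 10 or more intervals in every library, and 54 one of 50 or more.

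Shared sites were short. Their width ranged from 39 to 1517 bases with a median of 108 (quartiles 78 and 165), and together they covered 169575 bases. The 4612 other stacked PTBP2 WT sites had a median width of 68 bases, but width grows with the number of intervals, which the rule used. Chromosome 2 held 197 shared sites, 24.7% of its stacked PTBP2 WT sites, and chromosome 19 held 29, 23.8% of its own. Chromosome 16 held 159 (22.1%), chromosome 14 152 (18.8%) and chromosome 1 128 (18.1%). The share over all chromosomes used was 20.3%. By strand 487 shared sites were on plus and 686 on minus. The other stacked PTBP2 WT sites leaned to minus too, with 1978 on plus and 2634 on minus. Shared sites of single chromosomes were uneven by strand, with 131 of 152 on minus on chromosome 14 and 126 of 159 on plus on chromosome 16. In each of these the largest arrays, described below, lay on that strand.

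These short stretches held a large part of each PTBP library. They took 37.4% of the distinct intervals of PTBP2 WT, 37.0% of PTBP2 Rosa-PTBP1, 26.2% of FLAG Rosa-PTBP1 PTBP2 loxp and 21.1% of FLAG Rosa-PTBP1. A typical shared site held 17 intervals in PTBP2 WT (median; range 5 to 801), 11 in PTBP2 Rosa-PTBP1 (1 to 530), 25 in FLAG Rosa-PTBP1 (1 to 1278) and 21 in FLAG Rosa-PTBP1 PTBP2 loxp (1 to 738). The low ends lie under 5 because intervals were counted over the PTBP2 WT site, and the partner site can overlap it by its edge only. Per 100000 intervals the median levels were 18.1, 17.8, 11.2 and 13.6 in the same order. The rule bears on these rates, since its minimum of 5 intervals is a rate of 8.10 in PTBP2 Rosa-PTBP1 and of 2.24 in FLAG Rosa-PTBP1, and their order is not read.

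The strongest shared sites lay in few places. The 10 with the highest minimum rate over the 4 libraries fell on chromosome 19 (4 sites), chromosome 2 (3 sites), chromosome 18 (2 sites) and chromosome 3 (1 site). The first, chr19:5797351-5797825 on the minus strand, held 568 intervals in PTBP2 WT, 378 in PTBP2 Rosa-PTBP1, 1278 in FLAG Rosa-PTBP1 and 738 in FLAG Rosa-PTBP1 PTBP2 loxp. It also held 102 in FLAG WT replicate 1 and 1009 in replicate 2, rates of 199 and 5891 against 478 to 613 in the PTBP libraries. The background rates thus lay below all 4 PTBP rates in 1 replicate and above them in the other.

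The second, chr19:5799272-5799873 on the minus strand, held 801, 530, 962 and 719 intervals in PTBP2 WT, PTBP2 Rosa-PTBP1, FLAG Rosa-PTBP1 and FLAG Rosa-PTBP1 PTBP2 loxp. Its background was 114 and 912 intervals in FLAG WT replicates 1 and 2. Both PTBP2 rates (853 and 859) lay above both FLAG-PTBP1 rates (431 and 466), and the background again lay on either side of all 4.

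On chromosome 2 the pattern of the background differed from place to place. The minus-strand site chr2:6776989-6778505, the widest at 1517 bases, held 451, 277, 660 and 506 intervals in the same order, with 16 and 93 in FLAG WT replicates 1 and 2. The replicate 2 rate there, 543, lay above the PTBP rates of 296 to 480. The plus-strand site chr2:158208904-158209353 held 689, 365, 445 and 337, with none listed in either FLAG WT replicate. Its PTBP2 rates were 734 (WT) and 592 (Rosa-PTBP1), against FLAG-PTBP1 rates of 199 and 218 without and with the loxp alleles. It was thus among the strongest sites of each PTBP library and absent from both background lists.

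The plus-strand site chr18:37189312-37190469, 1158 bases wide, held 564 intervals in PTBP2 WT, 358 in PTBP2 Rosa-PTBP1, 523 in FLAG Rosa-PTBP1 and 552 in FLAG Rosa-PTBP1 PTBP2 loxp. FLAG WT replicate 1 held 2 there, and replicate 2 was listed at 0. Its neighbour chr18:37188057-37189238 held 399, 235, 432 and 394, again with 2 and 0 in the background. The single site of the 10 on chromosome 3, chr3:28178799-28180050 on the plus strand, held 398, 180, 435 and 379, with 2 and 0. In these 3 sites each PTBP library held at least 180 intervals and the background lists at most 2.

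**Figure D2:**
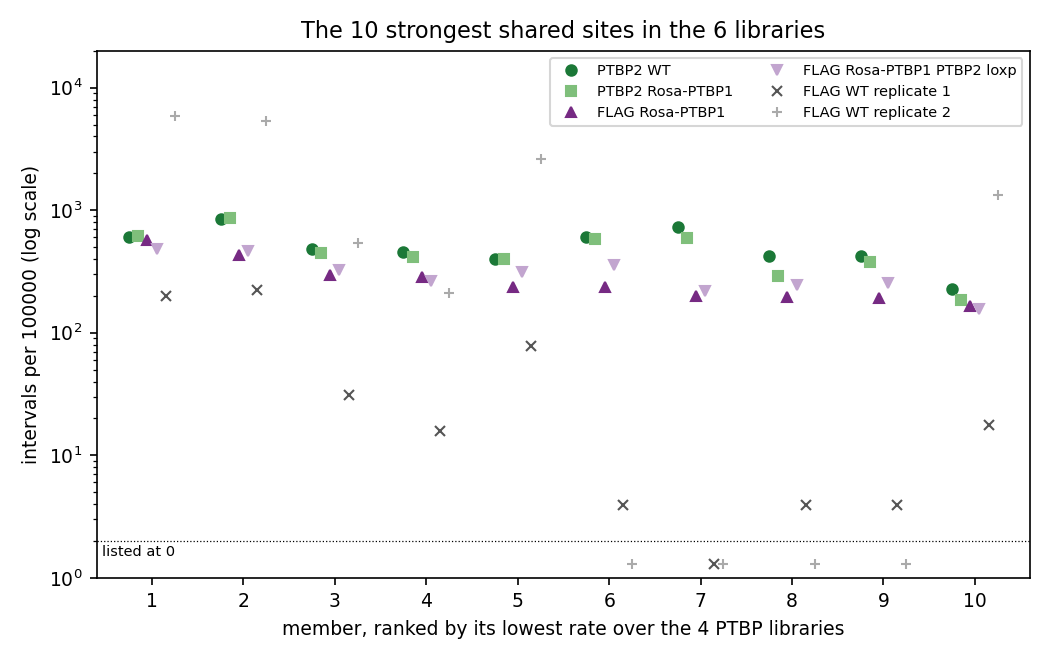
Distinct intervals per 100000 of the library (vertical axis, log scale) at the 10 shared sites with the highest minimum rate over the PTBP libraries, ranked from 1 to 10 (horizontal axis), with 1 point per library. Points under the dotted line are listed at 0; FLAG WT replicate 2 lies above the PTBP libraries at ranks 1, 2, 3, 5 and 10 (chromosome 19, and chromosome 2 at rank 3) and is listed at 0 at ranks 6 to 9.

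Further strong sites with no FLAG WT interval were picked after their values were seen. The minus-strand site chr14:65030514-65031045 held 146, 102, 201 and 208 intervals in PTBP2 WT, PTBP2 Rosa-PTBP1, FLAG Rosa-PTBP1 and FLAG Rosa-PTBP1 PTBP2 loxp. The plus-strand site chr13:42911330-42911668 held 96, 136, 194 and 133. The minus-strand site chr2:52514547-52515536 held 220, 166, 166 and 216. None of these 3 was an edge case, since the lowest count in any PTBP library was 96.

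The same sites tended to lead each library. Of the 50 shared sites with most intervals in each library, 31 were among the 50 in all 4. PTBP2 WT shared 39 of its 50 with PTBP2 Rosa-PTBP1, 42 with FLAG Rosa-PTBP1 and 43 with FLAG Rosa-PTBP1 PTBP2 loxp. The FLAG-PTBP1 libraries shared 43 of 50.

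Shared sites occurred in arrays. With gaps of up to 1000 bases between neighbours on the same strand, the 1173 sites formed 706 groups. Of the sites, 502 stood alone and 671 (57.2%) had such a neighbour, where 63.3% of all stacked PTBP2 WT sites had a stacked neighbour. Since fewer sites leave larger gaps, this difference is not read. There were 35 groups of 5 or more, which held 262 shared sites.

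The largest group held 22 shared sites over 9990 bases of the minus strand, chr2:6776431-6786420. Of its 1825 PTBP2 WT intervals, 451 and 429 lay at the pair of widest sites, toward the 3′ side of the group, and 7 to 128 at each of the others. As a share of all intervals of each library, the group took 1.94% of PTBP2 WT, 1.57% of PTBP2 Rosa-PTBP1, 1.51% of FLAG Rosa-PTBP1 and 1.67% of FLAG Rosa-PTBP1 PTBP2 loxp. It took 0.121% of FLAG WT replicate 1 and 1.34% of replicate 2. The PTBP libraries thus differed little in the share of their intervals in this array, and replicate 2 of the background came close to them.

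The next group, of 14 shared sites over 4886 bases at chr19:5796123-5801008 on the minus strand, had no other stacked PTBP2 WT site within it. It took 3.20% of PTBP2 WT, 3.31% of PTBP2 Rosa-PTBP1, 2.15% of FLAG Rosa-PTBP1, 2.18% of FLAG Rosa-PTBP1 PTBP2 loxp, 0.776% of FLAG WT replicate 1 and 23.8% of replicate 2. FLAG WT replicate 1 had intervals at all 14 sites and replicate 2 at 13; the site without one, chr19:5798392-5798478, held 29, 40, 39 and 73 intervals in the PTBP libraries in the order above. Replicate 2 exceeded every PTBP library at the other 13 sites by rate, as the plot of the 2 largest groups shows.

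**Figure D3:**
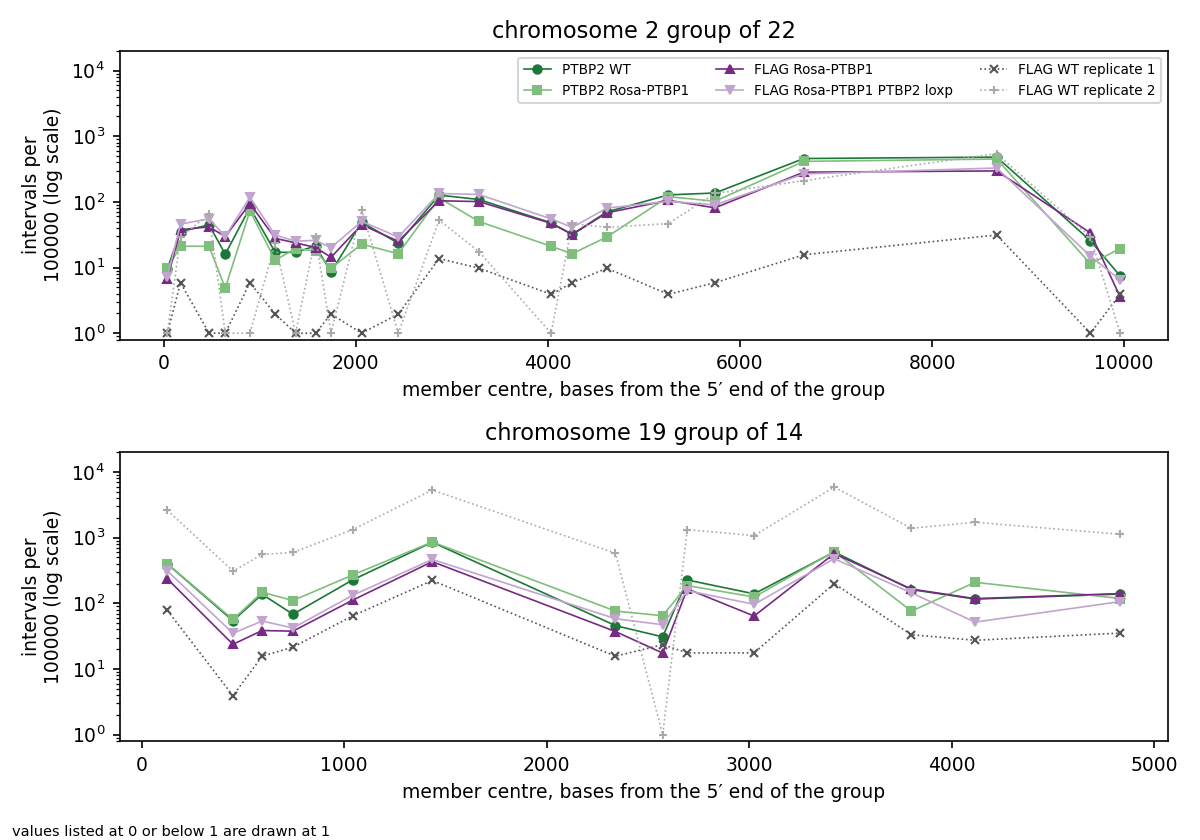
Distinct intervals per 100000 (vertical axes, log scale) at each shared site of the largest groups, the chromosome 2 group of 22 (top) and the chromosome 19 group of 14 (bottom), by distance of the site's centre from the 5′ end of the group (horizontal axes, bases), with 1 line per library. The widest chromosome 2 sites hold the highest PTBP rates of that group; FLAG WT replicate 2 runs above them on chromosome 19 except at 1 site drawn at the floor.

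Other groups were nearly free of background. The group of 13 at chr14:65025114-65031617 on the minus strand held 667 intervals in PTBP2 WT, 343 in PTBP2 Rosa-PTBP1, 1061 in FLAG Rosa-PTBP1 and 1080 in FLAG Rosa-PTBP1 PTBP2 loxp, against 10 and 2 in FLAG WT replicates 1 and 2. The group of 11 at chr18:37186198-37191407 on the plus strand held 1402, 806, 1443 and 1395, against 8 and 0. The group of 13 at chr3:25568020-25571160 on the minus strand was weaker, with 212, 94, 268 and 238, against 5 and 0. In each of these 3 arrays a background replicate held 10 intervals or fewer.

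With gaps of up to 100000 bases, the 5 largest arrays spanned 229934 to 715712 bases. The minus strand at chr2:6639381-7279272 held 78 shared sites, the plus strand at chr16:6386045-7101756 held 69, and the minus strand at chr14:39996512-40226445 and chr3:25439210-25834737 held 40 each. The minus strand at chr14:124680322-124956386 held 31. The chromosome 16 array took 2.21% of PTBP2 WT intervals, 2.29% of PTBP2 Rosa-PTBP1, 1.35% of FLAG Rosa-PTBP1 and 1.56% of FLAG Rosa-PTBP1 PTBP2 loxp, with 25 and 6 intervals in FLAG WT replicates 1 and 2. On chromosome 14 from 39996512, the PTBP2 share was 1.55% in WT and 0.971% in Rosa-PTBP1, and the FLAG-PTBP1 share 0.799% without and 1.21% with loxp alleles. Shared sites were the minority of stacked PTBP2 WT sites in all 5 arrays, with 78 of 211 in that on chromosome 2 and 69 of 213 in that on chromosome 16. In all 5 their share was above the 20.3% of all stacked PTBP2 WT sites. The arrays were picked for holding most shared sites, so this is not read.

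The FLAG WT libraries were not used to choose the sites. Of the shared sites, 925 (78.9%) overlapped no FLAG WT site and 248 (21.1%, 18.8 to 23.6) overlapped one, where 13.8% of all stacked PTBP2 WT sites did. Taken singly, replicate 1 was met by 17.4% and replicate 2 by 7.67%, against 11.3% and 3.87% of all stacked sites. A stacked FLAG WT site was overlapped by 6.31% of the shared sites and 2.71% of all stacked sites. Shared sites thus met a background site more often than stacked sites in general, but they also held more intervals and were wider.

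Within classes of similar interval number the shares were close in some classes and apart in others. With 10 to 19 intervals in PTBP2 WT, 16.0% of 369 shared sites (12.4 to 20.1) and 15.7% of 832 others (13.3 to 18.4) overlapped a FLAG WT site. With 20 to 49 it was 20.2% of 381 (16.3 to 24.6) and 18.9% of 127 (12.5 to 26.8). With 6 to 9 it was 15.2% of 243 (10.95 to 20.4) and 12.3% of 2175 (10.97 to 13.8), and with 5 it was 20% of 45 (9.58 to 34.6) and 8.62% of 1474 (7.23 to 10.2). With 50 or more it was 48.9% of 135 (40.2 to 57.6) and 25% of 4 (0.631 to 80.6). The confidence intervals of shared and other sites overlapped in each of these classes, least so at 5 intervals, and sites of 1 array are not independent.

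Counted as distinct intervals, most contacts with the background were slight. Of the 248 sites, 99 held 1 FLAG WT interval over both replicates and 43 held 2, while the 48 with 10 or more held 5272 intervals together. The chromosome 19 group alone held 43.8% of the replicate 1 intervals at shared sites and 84.4% of those of replicate 2. By rate, 1080 shared sites (92.1%) lay above both FLAG WT replicates in all 4 PTBP libraries, and at 93 a FLAG WT rate reached at least 1 PTBP rate. FLAG WT replicate 2 reached the FLAG Rosa-PTBP1 rate at 68 shared sites, and replicate 1 at 20. Replicate 2 is shallow: 1 interval is a rate of 5.84 there and of 0.448 in FLAG Rosa-PTBP1. Collapsing lines lowered replicate 1 most. At shared sites it held 3.52 lines per distinct interval, against 1.40 in replicate 2 and 1.11 to 1.28 in the PTBP libraries. Lines were not used for these background counts.

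The position of the summit, the base covered by most intervals, was not part of the rule. PTBP2 WT and FLAG Rosa-PTBP1 summits lay a median of 9 bases apart within a shared site, and 53.9% of the sites (50.98 to 56.8) had them within 10 bases. For PTBP2 WT and FLAG Rosa-PTBP1 PTBP2 loxp the median was 8 bases and the share 58.1% (55.3 to 60.98). For the PTBP2 libraries of WT and Rosa-PTBP1 it was 9 bases and 54.3% (51.4 to 57.2), and for the FLAG-PTBP1 libraries without and with loxp alleles 7 bases and 60.4% (57.5 to 63.2). Between PTBP2 Rosa-PTBP1 and the FLAG-PTBP1 libraries without and with loxp alleles the shares were 54.99% and 52.003%. Pairs of the same protein (54.3% and 60.4%) and pairs of different proteins (52.003% to 58.1%) thus covered overlapping ranges.

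The sequencing runs named in the read names gave a comparison within 1 library. Between runs XA041 and XB028 of PTBP2 WT the summits lay a median of 8 bases apart over 1153 shared sites, with 56.8% within 10 bases (53.9 to 59.7). Between the same runs of PTBP2 Rosa-PTBP1 it was 8 bases and 57.9% (55.0 to 60.8) over 1133 sites. The runs of 1 library thus differed in summit by about as much as libraries of different proteins. Runs XA041 and XB028 held 28347 and 65569 of the 93916 PTBP2 WT intervals on the chromosomes used. In PTBP2 Rosa-PTBP1 they held 37830 and 23867 of 61697. No interval thus occurred in both runs of a library. The runs are not free draws of it, and the effect on these distances was not tested. Each run holds fewer intervals than the whole library, and short sites bound the distance, since the median distance was 6 bases in the narrower part of the sites and 14 in the wider part for PTBP2 WT against FLAG Rosa-PTBP1.

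The shape of the coverage along a site was compared in the same way. Pearson's r of the coverage along a site had a median over sites of 0.74 between PTBP2 WT and each of the other 3 PTBP libraries, 0.68 and 0.66 between PTBP2 Rosa-PTBP1 and FLAG-PTBP1 without and with loxp alleles, and 0.80 between the FLAG-PTBP1 libraries. Between runs, which share no interval, it was 0.69 in PTBP2 WT and 0.74 in PTBP2 Rosa-PTBP1. Aligned on the PTBP2 WT summit, the mean coverage of the other 3 peaked at the same base and was 52 bases wide at its mid-height. FLAG WT replicate 2 also peaked at distance 0, 39 bases wide, over the 108 sites with coverage. Replicate 1 peaked at distance -1, 55 bases wide, over 285 sites. A peak at this summit was thus not particular to the PTBP libraries. At 100 bases upstream the mean coverage stood at 0.22 of each site's own maximum in FLAG Rosa-PTBP1 and 0.20 in FLAG Rosa-PTBP1 PTBP2 loxp. It was 0.17 in PTBP2 WT and 0.16 in PTBP2 Rosa-PTBP1. Since the alignment uses PTBP2 WT itself, its own sharper peak is built in.

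**Figure D4:**
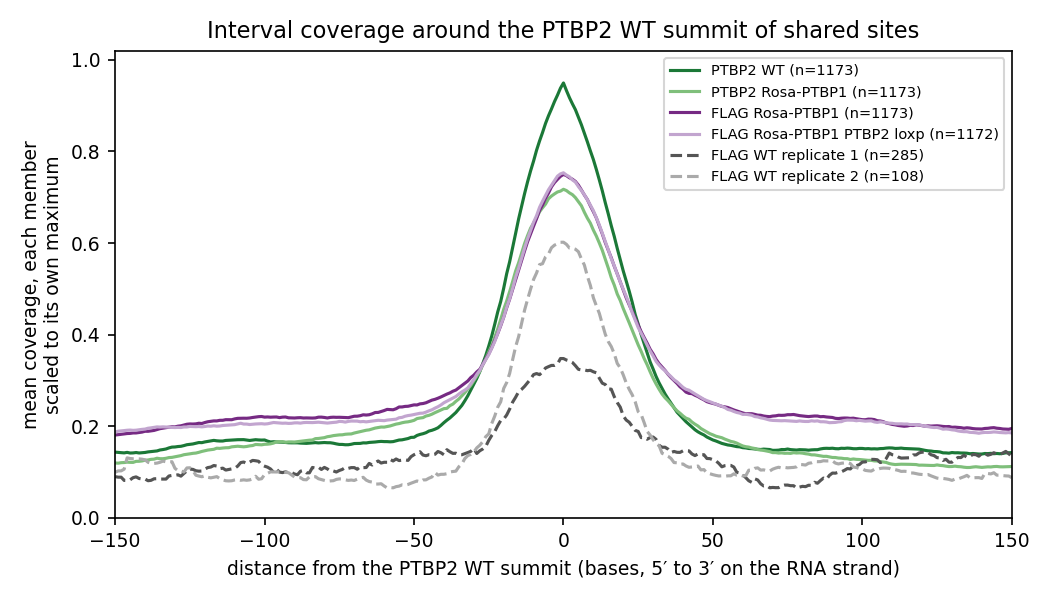
Mean coverage by distinct intervals (vertical axis, each shared site scaled to its own maximum within the window) by distance from the PTBP2 WT summit (horizontal axis, bases, 5′ to 3′), with 1 line per library and n the sites with any coverage. The 3 other PTBP libraries peak at distance 0. The dashed FLAG WT lines peak at distance -1 (replicate 1, 285 sites) and 0 (replicate 2, 108 sites).

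Intervals were longer in the PTBP2 libraries, with a median of 37 bases in PTBP2 WT and 39 in PTBP2 Rosa-PTBP1, against 31 and 32 bases in the FLAG-PTBP1 libraries without and with loxp alleles. Since FLAG-PTBP1 came from run WA047 and PTBP2 from runs XA041 and XB028, differences by antibody and by run cannot be told apart. FLAG WT replicate 2, from WA047, had a median of 33 bases, and FLAG WT replicate 1, from XA041 and XB028, 37. No read name occurred in more than 1 library. Of the PTBP2 WT intervals at shared sites, 5.09% had the same start and end as one of FLAG Rosa-PTBP1, 4.72% as one of FLAG Rosa-PTBP1 PTBP2 loxp and 3.60% as one of PTBP2 Rosa-PTBP1. Over the whole PTBP2 WT list, on all chromosomes, these shares were 2.24%, 2.18% and 1.24%. Shared sites lie only on the 12 chromosomes used, which held 61697 of the 74416 PTBP2 Rosa-PTBP1 intervals. Such shares also depend on the depth of the other list and on stacking, so the difference is not read.

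Each PTBP2 run by itself reached most shared sites. In PTBP2 WT, run XA041 had an interval at 98.3% of them and run XB028 at 100%, against 89.2% and 99.9% of the other stacked PTBP2 WT sites. In PTBP2 Rosa-PTBP1 the shares were 98.6% and 98.0%, against 24.5% and 21.9%. Stacks within a single run were fewer, at 47.7% in XA041 and 90.6% in XB028 for PTBP2 WT, and 61.9% and 54.6% for PTBP2 Rosa-PTBP1. At the other sites they were 8.07% and 55.4% for PTBP2 WT, and 3.75% and 2.86% for PTBP2 Rosa-PTBP1. The rule required 5 intervals in each whole library, so these shares are a description. Nearly all shared sites thus had intervals in both runs, while many lacked 5 in 1 of them.

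Levels at the shared sites were then set side by side between libraries, with the selection in mind, since the rule used these libraries. The first comparison was FLAG-PTBP1 against native PTBP2, FLAG Rosa-PTBP1 over PTBP2 WT. The median log2 ratio of rates was -0.79 (quartiles -1.25 and -0.25), so a typical site had a rate 1.73-fold lower in FLAG Rosa-PTBP1, and 983 of 1173 were lower. Over all 3634 sites stacked in both libraries the median was -0.75, so the shift at shared sites was close to that of all sites tested. Those sites met the same minimum of 5 intervals, a rate of 5.32 in PTBP2 WT and 2.24 in FLAG Rosa-PTBP1. Unequal minimum rates bear on the sign of this median and of those compared below, so the signs are not read. The median at shared sites ranged from -0.99 to -0.68 over the other scalings and region definitions tried, and it compares shares within libraries and not amounts of bound protein. Of the shared sites, 119 (10.1%) lay more than 2-fold above and 132 (11.3%) more than 2-fold below the median of the sites stacked in both libraries. For all those sites the shares were 11.1% and 11% (401 of 3634).

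At the high end, chr12:90033502-90033584 on the plus strand held 5 intervals in PTBP2 WT, 2 in PTBP2 Rosa-PTBP1, 52 in FLAG Rosa-PTBP1 and 24 in FLAG Rosa-PTBP1 PTBP2 loxp. Its FLAG Rosa-PTBP1 rate was 4.38-fold that of PTBP2 WT (exact conditional binomial 95% interval 1.76 to 14.05). Like the other sites named by a ratio here and below, it was picked as an extreme, which the interval does not allow for. FLAG WT replicate 2 held 11 intervals there, a rate of 64.2 against 23.3 in FLAG Rosa-PTBP1, and replicate 1 none. The plus-strand site chr16:7050473-7050546 held 6, 8, 45 and 35, a FLAG Rosa-PTBP1 rate 3.16-fold that of PTBP2 WT (1.34 to 9.06), with no FLAG WT interval. The FLAG WT replicate of the same run was thus above FLAG Rosa-PTBP1 at the first of these sites and listed at 0 at the second. Intervals were also counted over the joined region of the overlapping sites of all 4 libraries. There the log2 ratios of these sites were 2.73 and 2.25, against 2.13 and 1.66 over the PTBP2 WT site. At ranks 2, 4 and 5 of the 5 highest they were 0.09, 1.45 and 0.84, against 1.75, 1.44 and 1.43.

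At the low end, chr16:6548653-6548919 on the plus strand held 62 intervals in PTBP2 WT, 29 in PTBP2 Rosa-PTBP1, 9 in FLAG Rosa-PTBP1 and 6 in FLAG Rosa-PTBP1 PTBP2 loxp, with 1 in FLAG WT replicate 1. The rate was 16.4-fold lower in FLAG Rosa-PTBP1 than in PTBP2 WT (8.09 to 37.5), and both PTBP2 libraries lay above both FLAG-PTBP1 libraries. The plus-strand site chr15:89373173-89373295 held 21, 10, 5 and 7, a rate 9.98-fold lower (3.66 to 33.9). The joined region of the overlapping sites of all 4 libraries held no further interval at either site, so their ratios could not change with it. By contrast chr11:35930466-35930530 on the minus strand, with 1 FLAG Rosa-PTBP1 interval over the PTBP2 WT site, had a log2 ratio of -3.83 there and -0.55 over the joined region. The ratio of that site thus depended on the region counted. The plus-strand site chr11:77756425-77756882 held 55, 26, 12 and 1, a log2 ratio of FLAG Rosa-PTBP1 over PTBP2 WT of -3.44 there and -2.78 over the joined region.

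FLAG-PTBP1 with the PTBP2 loxp alleles over PTBP2 WT gave a median log2 ratio of -0.44 (quartiles -0.98 and 0.13) against -0.40 over all sites stacked in both, with 816 shared sites lower. Here 121 shared sites (10.3%, against 10.9% of all tested) lay more than 2-fold above the median of the sites stacked in both and 151 (12.9%, against 11.6%) more than 2-fold below. FLAG-PTBP1 with and without loxp alleles was compared with the same PTBP2 WT library, so these values share it.

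With loxp alleles, FLAG-PTBP1 was set against FLAG-PTBP1 without them, both from run WA047. The median log2 ratio at shared sites was 0.35 (quartiles -0.05 and 0.67) against 0.32 over all sites tested, and 835 of 1173 were higher with loxp alleles. The minimum of 5 intervals is a higher rate in the library with loxp alleles, which held 154407 intervals against 223107 without. All sites tested met that minimum too, so the sign of these medians is not read. More than 2-fold above the median of all sites stacked in both were 74 shared sites (6.31%, against 7.40% of all tested), and 85 lay more than 2-fold below (7.25%, against 8.83%). On chr14:124742178-124742354, minus strand, FLAG-PTBP1 held 36 intervals with loxp alleles and 9 without, a rate 5.78-fold higher (2.73 to 13.6), while PTBP2 WT held 34 and PTBP2 Rosa-PTBP1 12. Neither FLAG WT replicate had an interval there. On chr18:69527564-69527637, plus strand, it held 3 with loxp alleles and 32 without, a rate 7.38-fold lower (2.31 to 37.7), with 6 in PTBP2 WT and 5 in PTBP2 Rosa-PTBP1. Over the joined region the first gave a log2 ratio of 2.05 and the second -0.44, so the second shrank with the region counted. The first was rank 4 of the 5 highest. Ranks 1, 2, 3 and 5 fell from 3.99, 3.23, 3.23 and 2.37 to 0.92, 0.98, 1.32 and 1.06. The second was rank 3 of the 5 lowest. Ranks 1, 2, 4 and 5 shrank from -3.05, -3.05, -2.64 and -2.17 to -1.40, -0.00045, -1.15 and -0.08.

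PTBP2 in Rosa-PTBP1 cortex was set against PTBP2 in WT cortex. The median log2 ratio was 0.02 (quartiles -0.51 and 0.61) against 0.12 over all sites tested, with 619 sites higher and 554 lower. This sign is not stable: the median was 0.56 per intervals in stacked sites, -0.21 from lines and -0.046 over joined regions. More than 2-fold above the median of all sites stacked in both were 76 shared sites (6.48%, against 8.33% of all tested) and more than 2-fold below 171 (14.6%, against 12.9%). On chr16:63832728-63832827, minus strand, PTBP2 Rosa-PTBP1 held 18 intervals and PTBP2 WT 6, a rate 4.57-fold higher (1.74 to 14.05), with 21 and 20 in FLAG-PTBP1 without and with loxp alleles. On chr1:3570125-3570256, minus strand, it held 2 against 32, a rate 10.5-fold lower (2.68 to 90.5), while FLAG-PTBP1 held 51 and 44. On chr17:91423608-91423784, minus strand, it held 3 against 31, 6.79-fold lower (2.12 to 34.7), with 28 and 21 in FLAG-PTBP1. By rate, these last sites stood at 3.24 and 4.86 in PTBP2 Rosa-PTBP1 and at 34.1 and 33.0 in PTBP2 WT. FLAG Rosa-PTBP1, the deepest library, stood at 22.9 and 12.55 there. The sites were picked for a low rate in PTBP2 Rosa-PTBP1 against PTBP2 WT, so the contrast is not read. Over the joined regions their log2 ratios were -1.62 and -1.76, against -3.39 and -2.76 over the PTBP2 WT site. At ranks 2, 3 and 4 of the 5 lowest, ratios of -3.30, -2.98 and -2.85 shrank to -0.35, -0.98 and -0.58. The 5 highest went from 2.19, 2.19, 2.19, 2.02 and 1.98 to 0.81, 1.74, 1.64, 0.74 and -0.06.

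**Figure D5:**
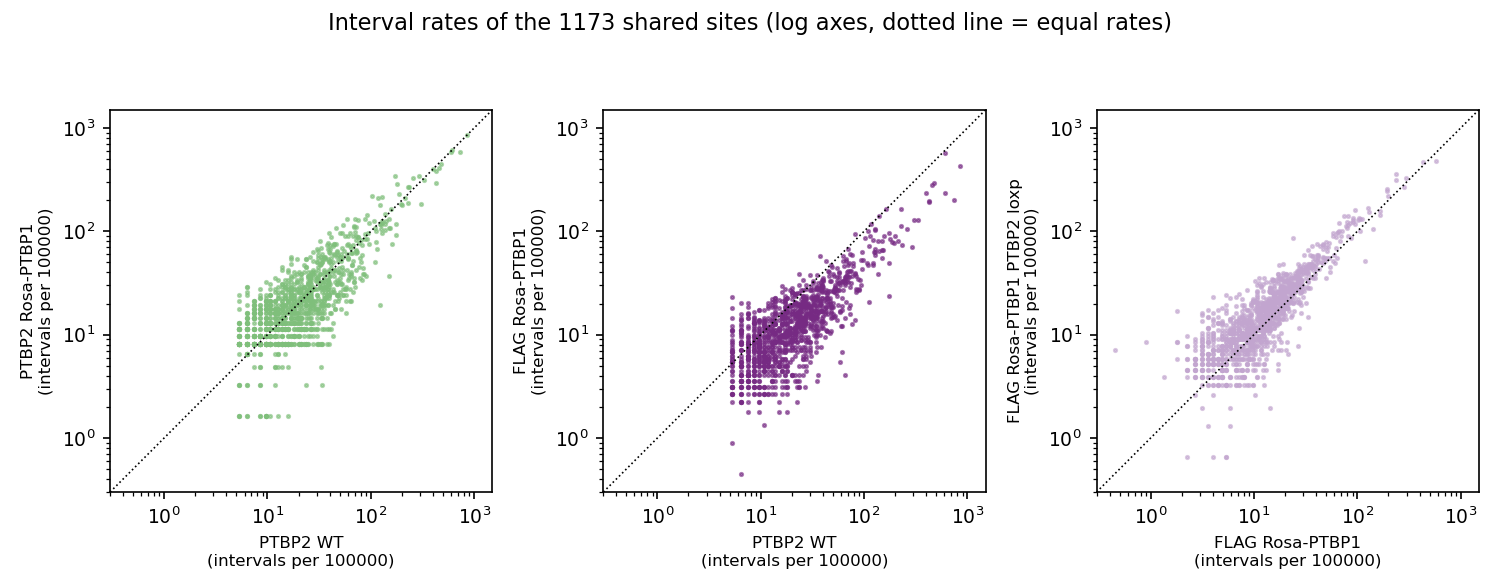
Distinct intervals per 100000 of the library at the 1173 shared sites, with 1 point per site and log axes, for PTBP2 Rosa-PTBP1 against PTBP2 WT (left), FLAG Rosa-PTBP1 against PTBP2 WT (middle) and FLAG Rosa-PTBP1 PTBP2 loxp against FLAG Rosa-PTBP1 (right). In the middle panel 983 points lie below the dotted line of equal rates; the left panel is centred on it and the right panel is the narrowest.

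How tightly the sites scattered differed between pairs of libraries. Over the 223 shared sites with 20 or more intervals in each PTBP library, a set chosen after the values were seen, the interquartile range of the log2 ratio was 0.45 between the FLAG-PTBP1 libraries. It was 0.65 between FLAG Rosa-PTBP1 PTBP2 loxp and PTBP2 WT, 0.72 between FLAG Rosa-PTBP1 and PTBP2 WT, 0.74 between the PTBP2 libraries and 0.91 between FLAG Rosa-PTBP1 and PTBP2 Rosa-PTBP1. Between the runs XB028 and XA041 of 1 library it was 0.60 in PTBP2 WT and 0.58 in PTBP2 Rosa-PTBP1. These runs held fewer intervals each and shared none. Over all 1173 shared sites the range was 1.00 between FLAG Rosa-PTBP1 and PTBP2 WT and 1.12 between the PTBP2 libraries. Between runs it was 1.03 over 1153 sites in PTBP2 WT and 1.04 over 1133 in PTBP2 Rosa-PTBP1. Sites with no interval in a run were left out there. Library pairs and run pairs thus did not rest on the same sites in the larger set. Their order is not read from it, and it was not tested.

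Intervals per base were compared as a description across sites, which share library, width and mappability. Spearman's rho over the 223 sites was 0.87 between the FLAG-PTBP1 libraries. PTBP2 WT gave 0.64 with FLAG Rosa-PTBP1, 0.62 with PTBP2 Rosa-PTBP1 and 0.60 with FLAG Rosa-PTBP1 PTBP2 loxp. PTBP2 Rosa-PTBP1 gave 0.58 and 0.52 with FLAG-PTBP1 without and with loxp alleles. Over all 1173 sites rho was 0.72 between the FLAG-PTBP1 libraries, 0.41 between the PTBP2 libraries and 0.40 between PTBP2 WT and FLAG Rosa-PTBP1. The FLAG-PTBP1 pair was the highest in both sets, while the order of the next pairs changed. The FLAG-PTBP1 libraries are the deepest and come from 1 run, and the part of run and depth in these values was not tested.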

How the data were processed

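Per the submitters' processing notes, reads were aligned with Bowtie (version not given in the sources used here) to mm9. The deposited lists hold positions of reads called significant, per the file headers (chromosome, start, end, strand, read name); the sources used here name neither caller nor false discovery rate, and the lists have no score, count or gene column. Some intervals stand on several lines, so lines were collapsed to distinct intervals before merging. A region with none listed may still have held reads. The members and lists were chosen with earlier results of these data known. Sites named were the 10 with the highest minimum rate, the 5 highest and 5 lowest ratios of 3 comparisons, the 5 widest, the 5 groups with most members and the 5 with most FLAG WT intervals; text examples come from these, apart from those said to be chosen later. With 1 library per PTBP group no test between groups was made. Intervals of shares are exact Clopper-Pearson, those of ratios exact conditional binomial, at 95%. Those of ratios do not allow for sites being picked as extremes of the same ratio. The reference at hand was GRCm38, so the planned motif and gene counts were not run. Merging and overlap were tested on simulated lists. Analyses used Python 3.11.15, numpy 2.4.6, pandas 2.3.3 and scipy 1.17.1.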

Additional observations from a re-analysis of the deposited data

How the results depend on the processing

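The 1173 shared sites became 683 with a minimum of 8 intervals, 526 with 10, 660 with minima scaled to depth (5 in PTBP2 Rosa-PTBP1, 8 in PTBP2 WT, 13 and 19 in FLAG-PTBP1 with and without loxp alleles), 495 and 637 with the PTBP2 libraries cut to run XA041 or XB028, and 2717 without PTBP2 Rosa-PTBP1. With a minimum of 4, lines, unmerged touching intervals, 50% overlap, all chromosomes, another library left out of the requirement, or another library's sites counted, the number stayed within 1.5 times. As a share of stacked PTBP2 WT sites (20.3%) they were 19.004%, 25.9% and 28.5% with minima of 4, 8 and 10, 25.02% with scaled minima, and 48.1% and 17.2% in runs XA041 and XB028. The share meeting a FLAG WT site (21.1%) was 7.67% to 17.4% with 1 replicate left out and 6.31% from stacked FLAG WT sites; outside the chromosome 19 group it was 20.2%. The median log2 ratio of FLAG Rosa-PTBP1 over PTBP2 WT (-0.79) was -0.99 per intervals in stacked sites, -0.68 from lines and -0.69 over joined regions. With loxp alleles over without (0.35) it was 0.39 per intervals in stacked sites. For PTBP2 Rosa-PTBP1 over WT (0.02) it was 0.56 per intervals in stacked sites and turned to -0.21 from lines and -0.046 over joined regions; the cause was not tested. Summits of FLAG Rosa-PTBP1 within 10 bases (53.9%) fell to 48.4% of the 546 sites with 10 or more intervals in each library. No paired analysis was possible because only the FLAG WT group carries replicate numbers. Depth limits PTBP2 Rosa-PTBP1 most, with 61697 intervals on the chromosomes used.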

Other observations

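No library held an interval on the opposite strand of a shared site, and none of the 27469 PTBP2 WT sites overlapped a site of the same list on the other strand; in FLAG Rosa-PTBP1 4 of 43026 did.

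Outside the chromosomes used, few stacked PTBP2 WT sites met the same rule. On chromosome 10 it was 2 of 623, where 335 overlapped a stacked FLAG Rosa-PTBP1 PTBP2 loxp site and 171 a PTBP2 Rosa-PTBP1 site but 6 a FLAG Rosa-PTBP1 site. On chromosome 5 it was 5 of 514, where 295 overlapped a FLAG Rosa-PTBP1 site and 5 a PTBP2 Rosa-PTBP1 site. On chromosome 4 it was 21 of 560.

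A single stacked FLAG Rosa-PTBP1 site overlapped up to 9 shared sites, and 98 such sites overlapped more than 1. In the other direction 167 shared sites overlapped more than 1 stacked FLAG Rosa-PTBP1 site.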
